A study of Mus musculus with 9 samples.

Results

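AP-1 transcription factors are dimers of basic leucine zipper (bZIP) proteins of the Jun, Fos, Atf and Maf families. A Jun protein can pair with itself or with a Fos or Atf protein, and Fos proteins bind DNA only with a partner such as Jun. The c-Jun NH2-terminal kinases (JNK) were named for the phosphorylation of cJun and also act on JunD and Atf2. In endothelial cells AP-1 is known as an early effector of cytokines, growth factors and flow. The 10 AP-1 genes described here are *Jun*, *Junb*, *Jund*, *Fos*, *Fosb*, *Fosl1*, *Fosl2*, *Atf2*, *Atf3* and *Maff*. They were found by symbol among the 37104 loci of the deposited tables, each at 1 locus.

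RNA-seq was performed on primary murine lung endothelial cells (MLEC) from adult C57BL/6J mice of 10 to 12 weeks of age, with 3 libraries in each of 3 groups. ECtrl cells carried the *Cdh5-Cre* transgene and wild-type *Jnk1* and *Jnk2* alleles (Cdh5-Cre+ Jnk1+/+ Jnk2+/+ Jnk3-/-). EfCtrl cells carried floxed *Jnk1* and *Jnk2* without the transgene (Cdh5-Cre- Jnk1 LoxP/LoxP Jnk2 LoxP/LoxP Jnk3-/-). E3KO cells carried both (Cdh5-Cre+ Jnk1 LoxP/LoxP Jnk2 LoxP/LoxP Jnk3-/-), so that all 3 groups lacked *Jnk3* and a group with intact *Jnk3* was not part of the comparison. The *Cdh5* (VE-cadherin) promoter directs Cre to endothelium. Each library came from a separate isolation that pooled the lungs of 4 mice, and the cells were selected with ICAM2 and cultured. In the E3KO libraries, *Jun* mRNA was lower than in every control library, as were 11.3% of all genes tested. *Jund* mRNA was below every control in 2 of 3 and close to the lowest control in the third. Of the 7 AP-1 genes tested only *Jun* was called, as lower, and only against the mean of both controls. That call was kept in 1 of 9 fits with a library left out. *Junb*, *Fos* and *Fosb* were too low to be tested in this way.

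The level of each gene is given in FPKM, a fragment count scaled to transcript length and to the size of the library, as deposited for each library. Differences are log2(FPKM + 1) of E3KO minus control from limma, and a gene was called at an adjusted p under 0.05 (Benjamini-Hochberg) over the 11306 genes with a mean of at least 1 FPKM. Adding 1 FPKM understates the change of low genes. The tables hold no counts, so the number of fragments behind each value is unknown.

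The labels were checked first against the deleted genes. *Mapk9*, which encodes JNK2, was 44.1, 50.9 and 47.9 FPKM in ECtrl, 45.5, 42.7 and 47.9 FPKM in EfCtrl, and 27.6, 35.1 and 20.7 FPKM in E3KO. Every E3KO library was below every control library, as for 11.3% of all genes tested (log2 difference −0.75, SE 0.15, limma adjusted p = 0.0383). *Mapk8*, which encodes JNK1, was 17.0, 15.0 and 17.9 FPKM in ECtrl, 16.7, 14.0 and 15.1 FPKM in EfCtrl, and 20.7, 8.77 and 4.65 FPKM in E3KO. The library labelled E3KO replicate 1 therefore had more *Mapk8* than any control, whereas replicates 2 and 3 had less than all of them. Without it the *Mapk8* difference was −1.18 (SE 0.20, limma adjusted p = 0.0328), compared with −0.67 (SE 0.35, adjusted p = 0.288) with all 9 libraries. In log2(FPKM + 0.1) the difference was −0.74 with all 9 libraries and −0.23 without E3KO replicate 3. FPKM covers the whole locus, so a transcript that lacks only the floxed exons still counts. *Mapk10*, the *Jnk3* gene, was at most 0.270 FPKM in any library.

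The library labelled E3KO replicate 1 stood apart in other ways. Its deposited FPKM summed to 9841810, of which 96.4% lay in the 10 highest symbols, against sums of 656089 to 908401 in the other 8 libraries. Without the genes that average 1000 FPKM or more, its sum was 327761, beside 334034 to 378893 in the others. It was below every control library for 44.9% of the genes tested and above every control library for 23.6%. For the AP-1 and JNK genes and the lists around AP-1, results are therefore also given without it, at least where it alters a call at the adjusted threshold. Counts of the lists by unadjusted p are from all 9 libraries unless stated. This choice was made after the data were seen. Markers of cell types are given with all 9 libraries only.

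The cell type in the labels was checked against its markers. The 10 pan-endothelial markers summed to 2779 to 3950 FPKM in each library, and *Emcn*, the most abundant, was the 1 of the 10 called against the mean of both controls. It was 822 to 1095 FPKM in the controls and 1557, 1452 and 1477 FPKM in E3KO (0.63, SE 0.12, limma adjusted p = 0.0279). Of the 10 differences 5 were above 0, and by unadjusted p 1 gene was higher and 1 lower, beside 6.65% and 16.6% of all genes. *Vwf* was low throughout, at 0.881 to 2.15 FPKM in the controls and 0.356, 0.356 and 1.63 FPKM in E3KO (−0.59, SE 0.26, limma adjusted p = 0.211). Markers of lymphatic endothelium were abundant too, with *Lyve1* at 1513 to 2050 FPKM. Of the 6 lymphatic markers 3 were called lower in E3KO (limma adjusted p under 0.05), namely *Prox1*, *Reln* and *Ccl21a*, where 2.88% of all genes tested were. Red cell markers were at or near 0, as was the T cell marker *Cd3e*, whereas *Lyz2*, a myeloid gene, was 28.0 to 191 FPKM in the controls and 133 to 221 FPKM in E3KO.

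Among the 7 AP-1 genes with a mean of at least 1 FPKM, 1 was called, as lower, in E3KO against the mean of both controls, where 4.18% of all genes tested were called, 2.88% as lower and 1.3% as higher. By an unadjusted p of 0.05, 2 were lower, beside 16.6% of all genes lower and 6.65% higher, 23.3% in all. Against ECtrl alone 0 of the 7 were called by limma, where 2.01% of all genes were called (1.28% lower, 0.725% higher), and 2 passed an unadjusted p of 0.05, beside 19.6% (13.8% lower, 5.78% higher). Against EfCtrl alone 0 were called, where 0.84% of all genes were (0.504% lower, 0.336% higher), and 2 passed the unadjusted threshold, beside 17.2% (12.6% lower, 4.64% higher). In both contrasts these were *Jun* and *Jund*, and both were lower. These 3 contrasts share the E3KO libraries and are not independent of each other. Between the control groups 0 genes (0%) of the 11306 were called by limma, and 1 AP-1 gene, *Maff*, was lower in EfCtrl by the unadjusted threshold, beside 1.78% of all genes (0.752% lower, 1.03% higher). The median difference of the 7 AP-1 genes from the mean of both controls was 0.03, with 3 of 7 below 0, and the median of all genes tested was −0.09. Centring each library on its median removed that shift and changed the calls across all genes from 147 higher and 326 lower to 199 higher and 223 lower.

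*Jun* encodes cJun, the founding AP-1 subunit and JNK substrate. Its locus in the files (mm10, chromosome 4, 95049034 to 95167318) extends over neighbouring non-coding transcripts, and the annotated gene is a single stretch on the minus strand from 95049034 to 95052222. The 250 bases before its RefSeq start (GRCm38.p6) are shown because *Jun* is known to be regulated by AP-1 through a site in this stretch. Capitals mark TGACATCA, a variant of the AP-1 site that begins at position −45 from the start, and its reverse complement was searched as well.

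Jun promoter, chr4:95052223-95052472, minus strand: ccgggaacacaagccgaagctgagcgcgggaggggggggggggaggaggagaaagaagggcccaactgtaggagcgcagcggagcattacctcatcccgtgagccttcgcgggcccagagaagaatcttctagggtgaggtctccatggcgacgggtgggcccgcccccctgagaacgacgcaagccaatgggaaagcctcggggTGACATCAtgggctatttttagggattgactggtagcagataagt

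TGACATCA was found on either strand in 2.93% of the 32851 RefSeq promoters searched over the same length. Of the 10 AP-1 genes 9 had an entry, with 11 promoters in all, and *Fosl1* had none. Apart from *Jun*, only *Maff* held a match in the stretches searched: TGACATCA in 1 of its 3 promoters, and TGACGTCA, the cAMP response element, which 1.55% of promoters hold, in another. None held TGAGTCA or TGACTCA, the consensus AP-1 site on its 2 strands, which 4.46% of promoters hold. For *Jund* the stretch lies before the RefSeq start, and the GENCODE start at 70698949 is downstream of it, so the bases before that start were not searched. A match is only a match of letters.

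*Jun* was 14.7, 11.4 and 13.2 FPKM in ECtrl and 13.5, 11.3 and 13.0 FPKM in EfCtrl. In E3KO it was 7.14, 9.24 and 8.15 FPKM. All 3 E3KO libraries lay below all 6 controls, an arrangement found in that direction for 11.3% of all genes tested. The E3KO mean was 8.18 ± 1.05 FPKM (SD, n = 3) and the control mean 12.9 ± 1.30 FPKM (SD, n = 6), a ratio of 0.636. The difference was −0.60 (SE 0.12, limma adjusted p = 0.0354) from the mean of both controls. It was −0.62 (SE 0.14, adjusted p = 0.0645) from ECtrl and −0.57 (SE 0.14, adjusted p = 0.103) from EfCtrl, neither of which passed the threshold. An exact two-sided permutation of the 9 libraries gave p = 0.0119, the smallest that 84 splits allow. The control groups differed by −0.05 (SE 0.14), within their own spread.

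The *Jun* call was near its threshold. Leaving out 1 library at a time kept the difference between −0.68 and −0.51, but the adjusted p ranged from 0.0379 to 0.112 and was under 0.05 only without ECtrl replicate 2. Without E3KO replicate 1 the difference was −0.51 (SE 0.12, adjusted p = 0.0686), and E3KO still lay below every control. Other transcripts listed at the same locus were low, *BC042782,n-R5s189* at 0.372 to 2.21 FPKM and *4930551L18Rik* at 0 to 0.275 FPKM. How reads of the 2 strands were assigned is not given in the sources used here, so reads of *Jun* and of antisense RNA cannot be told apart.

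*Jund* encodes JunD, which unlike cJun is known for steady expression in resting cells. Its locus is on chromosome 8 from 70697739 to 70700616 (mm10, plus strand). It was 17.4, 15.3 and 10.7 FPKM in ECtrl and 12.8, 15.3 and 16.5 FPKM in EfCtrl. In E3KO it was 7.29, 10.7 and 9.08 FPKM. All E3KO libraries lay below all EfCtrl libraries, as for 19.7% of all genes tested, but E3KO replicate 2 and ECtrl replicate 3 were about equal, so that the groups overlapped. The E3KO mean of 9.03 ± 1.73 FPKM (SD, n = 3) was 0.615 of the control mean of 14.7 ± 2.50 FPKM (SD, n = 6).

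The *Jund* difference was as large as that of *Jun* but varied more between libraries. It was −0.64 (SE 0.18, limma adjusted p = 0.0806) from the mean of both controls, −0.61 (SE 0.20, adjusted p = 0.156) from ECtrl and −0.67 (SE 0.20, adjusted p = 0.160) from EfCtrl. The exact permutation test gave p = 0.0238, which rose above 0.05 (to 0.0536 or 0.0714) with 6 of the 9 libraries left out in turn. Without E3KO replicate 1 the difference was −0.51 (SE 0.18, adjusted p = 0.172), and without ECtrl replicate 3 it was −0.74 (adjusted p = 0.0457). *Gm11175*, an antisense transcript listed at the same locus, was 0.387 to 3.23 FPKM. *Jund* and *Jun* correlated over the 9 libraries (Pearson r = 0.82) but not over the 6 controls alone (r = −0.01), as a description of libraries that differ by group.

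*Junb* encodes JunB, an immediate early Jun protein. Its locus is on chromosome 8 from 84976909 to 84978748 (minus strand). It was 0.910, 0.623 and 0.568 FPKM in ECtrl, 0.858, 0.961 and 0.691 FPKM in EfCtrl, and 0.453, 0.592 and 1.29 FPKM in E3KO. E3KO replicate 1 was below and replicate 3 above every control, and the means were close at 0.778 FPKM in E3KO and 0.768 FPKM in the controls (exact permutation p = 0.833). The difference in log2(FPKM + 0.1) turned from −0.08 to 0.20 without E3KO replicate 1 (exact permutation p = 0.536). Without E3KO replicate 3 it was −0.47 (exact permutation p = 0.143). *Junb* was below the minimum for the fit across genes, as were *Fos* and *Fosb*.

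**Figure D1:**
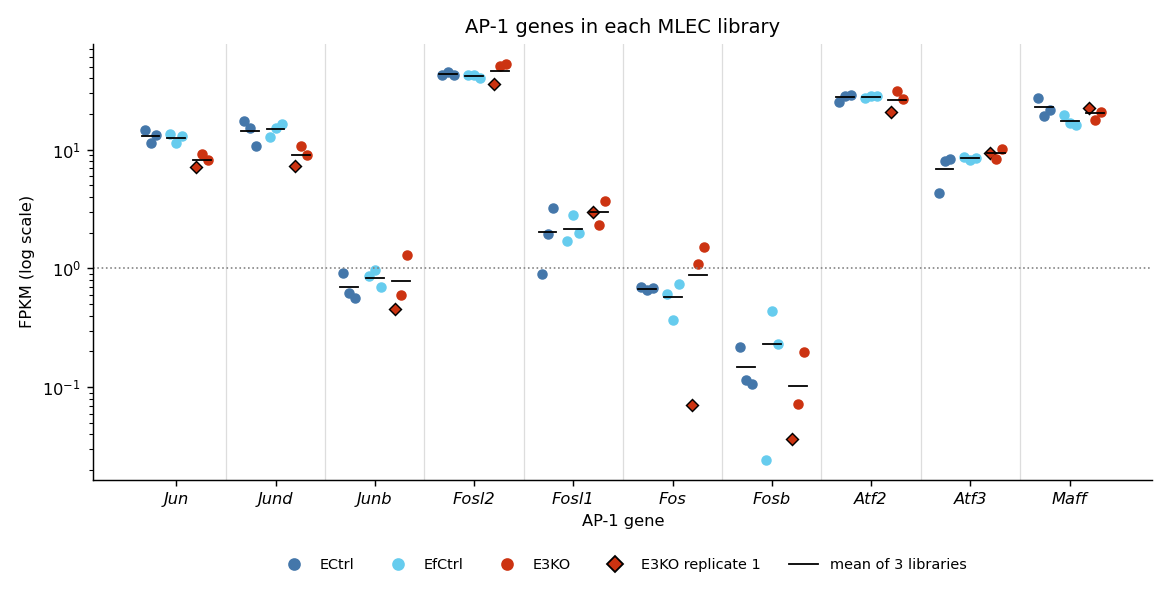
FPKM of the 10 AP-1 genes on a log axis, 1 point per library coloured by group, with a line at the mean of 3 libraries, a diamond for E3KO replicate 1 and a dotted line at 1 FPKM. *Jun* in E3KO sits at 7.14 to 9.24 FPKM, below all 6 controls, while *Fosl2*, *Atf2*, *Atf3* and *Maff* overlap the controls.

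*Fosl2* encodes Fra-2, a Fos protein without the strong activation domain of cFos, and was the most abundant AP-1 transcript. Its locus is on chromosome 5 from 32136472 to 32157831 (plus strand). It was 42.3, 44.9 and 42.2 FPKM in ECtrl and 42.7, 42.3 and 40.4 FPKM in EfCtrl, a spread of 3.37% of the mean over the 6 controls. In E3KO it was 35.9, 50.4 and 52.8 FPKM. Replicate 1 lay below every control and replicates 2 and 3 above every control, a pattern shared by 1.97% of all genes tested. The difference from the mean of both controls was 0.10 (SE 0.13, limma adjusted p = 0.645). Without E3KO replicate 1 it was 0.27 (SE 0.08, adjusted p = 0.112), and replicates 2 and 3 were both above every control for 10.2% of the genes tested.

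*Fos* encodes cFos, the immediate early Fos protein that rises within minutes of stimulation. It lies on chromosome 12 from 85473890 to 85477273 (plus strand). It was 0.691, 0.659 and 0.678 FPKM in ECtrl, 0.610, 0.367 and 0.736 FPKM in EfCtrl, and 0.0707, 1.09 and 1.5 FPKM in E3KO. As for *Fosl2*, E3KO replicate 1 was the lowest of all libraries and replicates 2 and 3 were the highest. The difference in log2(FPKM + 0.1) was −0.05 with all 9 libraries (exact permutation p = 1) and 0.96 without replicate 1. It was −0.44 without E3KO replicate 2 and −0.66 without E3KO replicate 3. For *Fos* as for *Fosl2*, the exact permutation p without replicate 1 was 0.0357, the smallest that 28 splits allow. Only a gene whose remaining E3KO libraries both lie on the same side of every control can reach it.

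*Fosl1* encodes Fra-1, a Fos protein induced later than cFos. It lies on chromosome 19 from 5447703 to 5455945 (plus strand), where *Ccdc85b* overlaps it. It was 0.897, 1.93 and 3.20 FPKM in ECtrl, 1.69, 2.79 and 1.99 FPKM in EfCtrl, and 3.01, 2.33 and 3.67 FPKM in E3KO. The groups overlapped, and the difference of 0.41 (SE 0.25) from the mean of both controls did not pass the test (limma adjusted p = 0.344). With 1 library left out at a time this difference ranged from 0.26 to 0.55. *Fosb* encodes FosB, another immediate early Fos protein. It lies on chromosome 7 from 19302721 to 19310045 (minus strand). It was 0.219, 0.114 and 0.107 FPKM in ECtrl, 0.0245, 0.434 and 0.229 FPKM in EfCtrl, and 0.0370, 0.0721 and 0.199 FPKM in E3KO. All of its E3KO values lay within the range of the controls (exact permutation p = 0.345).

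*Atf2* encodes a JNK and p38 substrate that pairs with cJun. Its locus is on chromosome 2 from 73816509 to 73892639 (minus strand). It was 25.0, 28.6 and 28.9 FPKM in ECtrl, 27.2, 28.2 and 28.2 FPKM in EfCtrl, and 20.9, 31.1 and 26.5 FPKM in E3KO. Replicate 1 was again below and replicate 2 above every control. The difference of −0.09 (SE 0.13, limma adjusted p = 0.680) turned to 0.05 (SE 0.10) without replicate 1.

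*Atf3* encodes a stress-induced partner of Jun proteins that often acts as a repressor. Its locus is on chromosome 1 from 191170296 to 191183340 (minus strand). It was 4.29, 8.07 and 8.30 FPKM in ECtrl, 8.68, 8.13 and 8.49 FPKM in EfCtrl, and 9.45, 8.28 and 10.2 FPKM in E3KO. ECtrl replicate 1 was the lowest library, and E3KO replicate 2 lay among the controls. The difference was 0.28 (SE 0.18, limma adjusted p = 0.388) from the mean of both controls. It was 0.43 (SE 0.21) from ECtrl, 0.13 (SE 0.21) from EfCtrl and 0.14 from both without ECtrl replicate 1.

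*Maff* encodes a small Maf protein, which lacks an activation domain. Its locus is on chromosome 15 from 79347541 to 79359072 (plus strand). It was 27.1, 19.4 and 21.5 FPKM in ECtrl, 19.5, 16.6 and 16.1 FPKM in EfCtrl, and 22.2, 17.8 and 20.6 FPKM in E3KO. E3KO lay between the control groups, with a difference of −0.15 (SE 0.15) from ECtrl and 0.20 (SE 0.15) from EfCtrl, and 0.03 (SE 0.13, limma adjusted p = 0.919) from their mean. The control groups themselves differed by −0.35 (SE 0.15, unadjusted p = 0.0493, adjusted p = 1).

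**Figure D2:**
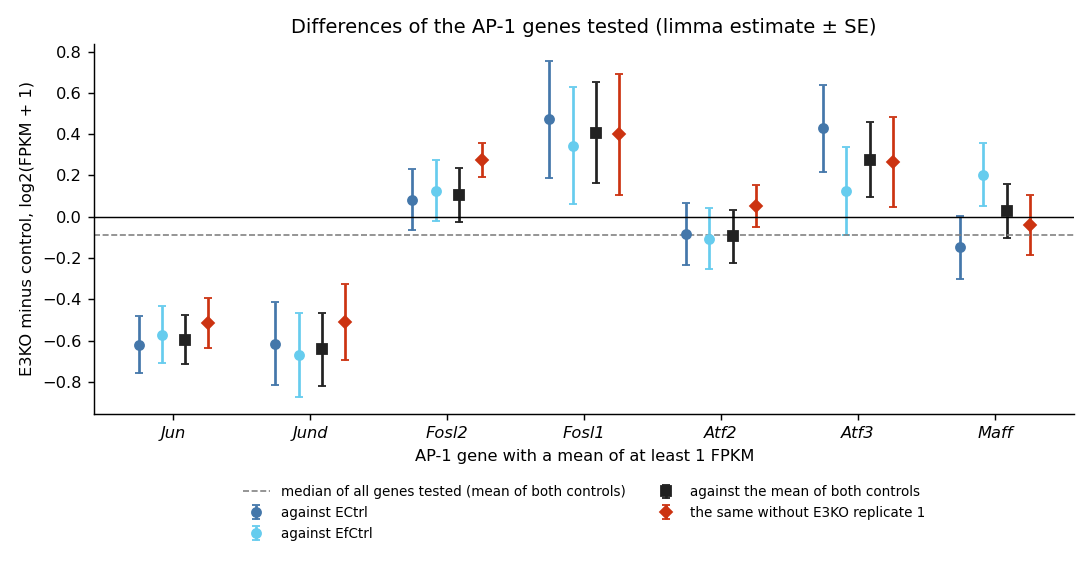
Differences in log2(FPKM + 1) between E3KO and the controls for the 7 AP-1 genes tested, as limma estimates with SE bars, against each control group, against their mean, and against their mean without E3KO replicate 1. *Jun* and *Jund* lie between −0.67 and −0.51 in every set, and the dashed line marks the median of all genes tested at −0.09.

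The order of levels in the controls, from *Fosl2* through *Atf2*, *Maff*, *Jund*, *Jun*, *Atf3*, *Fosl1*, *Junb* and *Fos* to *Fosb*, was described over the 6 control libraries. FPKM is per length, so levels can be set beside each other. *Fosl2* was above *Atf2*, *Jun* above *Atf3*, and *Atf3* above *Fosl1* in 6 of 6 control libraries. *Jund* was above *Jun* in 4 of 6 and *Junb* above *Fos* in 3 of 6, so these neighbours did not differ beyond their spread. Exact sign flips of the log2 difference over 9 neighbouring pairs gave p = 0.0312 at the least, the smallest that 6 libraries allow, and an adjusted p of 0.0804. The pairs and their direction were taken from these same 6 libraries, so the p-values are no separate test of the order. In E3KO *Jun* was above *Atf3* in only 1 of 3 libraries.

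The Jun and Fos families differed in how their sums compared between groups. *Jun*, *Junb* and *Jund* together came to 28.3 ± 2.96 FPKM (SD, n = 6) in the controls and 18.0 ± 2.88 FPKM (SD, n = 3) in E3KO. The 4 Fos genes came to 45.4 ± 1.51 FPKM in the controls and 50.4 ± 10.0 FPKM in E3KO, 39.0, 53.8 and 58.2 FPKM by library. The Jun sums did not overlap, at 24.5 to 33.0 FPKM against 14.9 to 20.6 FPKM, whereas the Fos sums did. The ratio of the Fos to the Jun sum was 1.62 ± 0.20 in the controls, with a range of 1.34 to 1.89, and 2.62, 2.62 and 3.14 in E3KO. This ratio does not depend on the scaling of a library, and replicate 1 took the same value as replicate 2. No test was made of the sums, which were formed after the values were seen.

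The make-up of each family did not show the same separation. *Jun* made up 45.7 ± 5.11% of the Jun sum in the controls and 45.6 ± 2.09% in E3KO, since *Jund* was lower as well. *Fosl2* made up 93.6 ± 1.71% of the Fos sum in the controls and 92.1 ± 1.37% in E3KO, so that the Fos sum was almost wholly one gene in each group. The level of *Atf3* relative to *Jun* was 0.291 to 0.720 in the controls and 0.896 to 1.32 in E3KO.

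**Figure D3:**
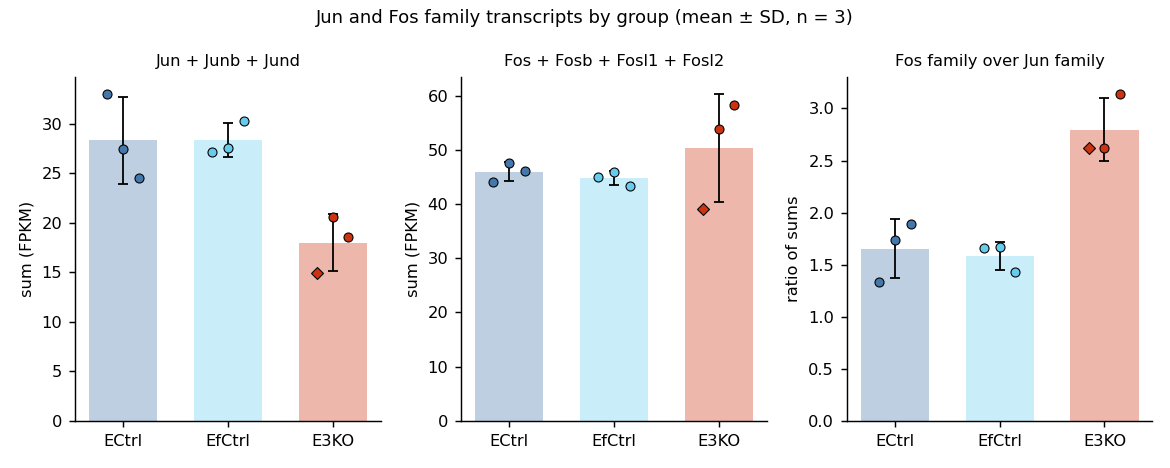
Summed FPKM of the Jun family, of the Fos family, and their ratio, by group, with bars at the mean, SD error bars (n = 3) and 1 point per library (diamond, E3KO replicate 1). The ratio is 2.62 to 3.14 in E3KO and 1.34 to 1.89 in the 6 controls.

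**Figure D4:**
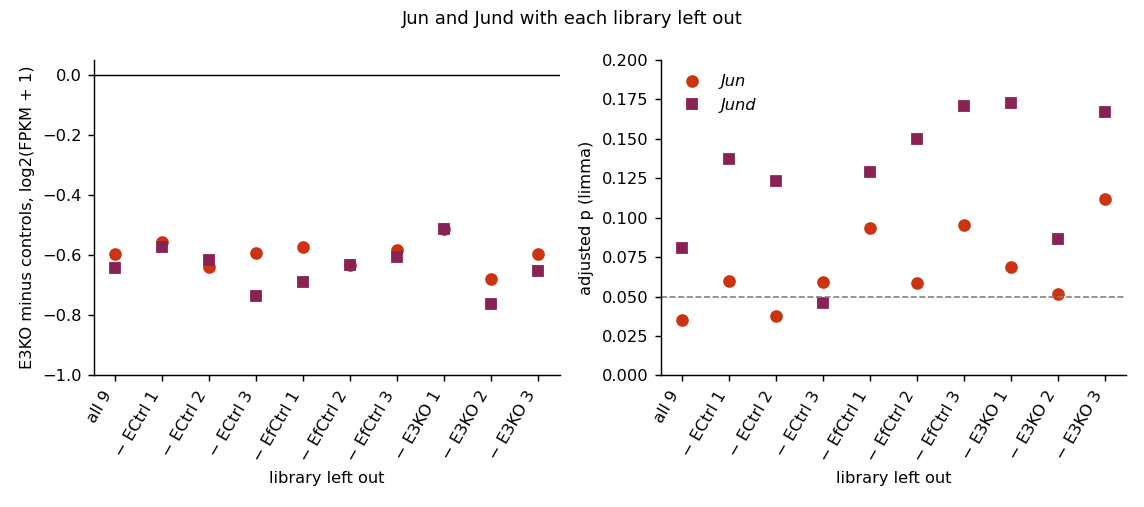
Difference of *Jun* and *Jund* in log2(FPKM + 1) between E3KO and the mean of both controls (left) and its limma adjusted p (right), with all 9 libraries and with each library left out. The differences stay between −0.76 and −0.51, while the adjusted p of *Jun* is above the dashed line at 0.05 in 8 of the 9 cases.

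The genes most like *Jun* over the 9 libraries were *Prkcz* (Pearson r = 0.99), which encodes an atypical protein kinase C, *Csrp1* (r = 0.99), which encodes a LIM-domain protein, and *Prox1* (r = 0.99), the transcription factor that specifies lymphatic endothelium. The same pairs had r of 0.96, 0.96 and 0.92 over the 6 controls alone. These are descriptions over libraries that share their groups, and they were picked as the highest among 11306 genes. *Prox1* was 117 to 158 FPKM in the controls and 58.1, 79.2 and 64.7 FPKM in E3KO, with no overlap, as for 11.3% of all genes tested in that direction. It was picked for its likeness to *Jun*, which did not overlap either.

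Of the 6 lymphatic markers 3 were lower beside *Jun*. *Prox1* (−0.99, SE 0.14, limma adjusted p = 0.0141), *Reln* (−0.96, SE 0.15, adjusted p = 0.0178) and *Ccl21a* (−1.65, SE 0.35, adjusted p = 0.0398) were lower in E3KO. *Lyve1* (−0.07, SE 0.11), *Flt4* (−0.12, SE 0.14) and *Pdpn* (−0.29, SE 0.13) were not called. The list summed to 2179 to 2862 FPKM in the controls and 2011 to 2319 FPKM in E3KO, and these sums overlapped. *Thy1*, the most abundant gene of the fibroblast list, was 210 to 375 FPKM in the controls and 94.4 to 142 FPKM in E3KO (adjusted p = 0.0302). The list summed to 236 to 384 FPKM and 108 to 147 FPKM, without overlap. These sums were almost wholly *Thy1*, as no other gene of the list exceeded 8.63 FPKM in any library. They therefore do not describe the list as a whole. By unadjusted p 3 of the 5 tested genes of the list were lower and 0 higher, beside 16.6% and 6.65% of all genes. *Col3a1* (−0.10, SE 0.26) and *Dcn* (−0.20, SE 0.39) were not called. *Col1a1* was 0.591 to 6.67 FPKM in the controls and 0.0131, 0.501 and 0.583 FPKM in E3KO (−1.33, SE 0.46, adjusted p = 0.138), and *Col1a2* differed by −1.61 (SE 0.49, adjusted p = 0.106). Their part in the *Jun* result was not tested, and in bulk RNA fewer cells of a type and less RNA per cell cannot be told apart.

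The other AP-1 genes had other nearest patterns. *Jund* was most like *Orc2*, *Nt5c3* and *Zfp606* (r = 0.97 each). *Fosl2* was most like *H2-T24* (r = 0.96), *Cdkn2a* (r = 0.96) and *Dnajb11* (r = 0.95), and *Atf2* most like *Pptc7* (r = 0.98), *Caprin1* (r = 0.97) and *Eif2ak1* (r = 0.97). *Atf3* was most like *Helz* (r = 0.96), *Hivep1* (r = 0.96) and *Lyst* (r = 0.96), and among AP-1 genes its highest r was with *Fosl1* (r = 0.83). *Maff* was most like *Stard8* (r = 0.94), *Nrcam* (r = 0.91) and *4921524J17Rik* (r = 0.91).

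Of 23 other bZIP genes that can pair or compete with AP-1, 22 were in the table and 19 were tested. By limma 0 of the 19 were called and 0 passed an unadjusted p of 0.05, beside 4.18% and 23.3% of all genes, with a median difference of −0.03. Without E3KO replicate 1, 0 were called and 2 passed the unadjusted threshold, as higher, with a median of 0.04. The share of all genes passing it in that fit was not computed. The most abundant were *Nfe2l2*, the regulator of the antioxidant response, and *Crem*, a cAMP-responsive factor. *Nfe2l2* ranged over 161.5 to 190 FPKM in controls and 137 to 161.2 FPKM in E3KO (−0.18, SE 0.09, limma adjusted p = 0.286). The groups thus only just failed to overlap, and 11.3% of all genes tested had every E3KO library below every control. *Crem* ranged over 107 to 139 FPKM and 99.1 to 109 FPKM (−0.25, SE 0.12, adjusted p = 0.253).

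Of 15 genes of the JNK, p38 and ERK pathways upstream of AP-1 (the MAP kinases, kinases that act on or after them, and JNK scaffolds), 14 were tested and *Mapk9* was the only one called, as lower, beside 2.88% of all genes. That call was lost with each library but E3KO replicate 2 left out, at differences of −0.78 to −0.56, and without E3KO replicate 2 the difference was −0.93 (limma adjusted p = 0.0297). Without E3KO replicate 1 the 1 gene called was *Mapk8*, as lower (−1.18, SE 0.20, limma adjusted p = 0.0328), where 237 genes of the whole table were called lower. With all 9 libraries the median difference of the list was −0.02. *Mapk3* (ERK1) was 106 to 154 FPKM in the controls and 111 to 159 FPKM in E3KO (0.10, SE 0.16).

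Of 21 immediate early genes outside AP-1, 15 were tested, 3 were higher and 1 was lower, beside 1.3% and 2.88% of all genes, with a median of −0.09. By unadjusted p the balance was the other way, with 4 higher and 6 lower, beside 6.65% and 16.6%. The 6 were *Dusp1*, *Dusp5*, *Btg2*, *Klf2*, *Klf4* and *Klf6*, each below every control in all 3 E3KO libraries, as were 11.3% of all genes tested, and of these *Dusp1*, *Dusp5*, *Klf2* and *Klf4* are named here after their values were seen. *Zfp36*, which encodes an mRNA decay factor, was 1.54 to 2.44 FPKM in the controls and 4.34, 4.12 and 4.0 FPKM in E3KO (0.79, SE 0.12, limma adjusted p = 0.0155). *Ctgf* and *Cyr61*, matricellular genes induced by serum and YAP, were higher as well. *Ctgf* was 119 to 195 FPKM in the controls and 316, 236 and 264 FPKM in E3KO (0.87, SE 0.16, adjusted p = 0.0283). *Cyr61* was 32.1 to 40.7 FPKM and 58.6, 44.9 and 55.6 FPKM (0.56, SE 0.12, adjusted p = 0.0416). *Klf6*, a Krüppel-like factor, moved the other way, from 79.4 to 94.2 FPKM in the controls to 49.8, 61.4 and 56.5 FPKM in E3KO (−0.58, SE 0.10, adjusted p = 0.0232). *Btg2*, an antiproliferative gene and the second most abundant of the list, was 128 to 144 FPKM and 106 to 127 FPKM (−0.23, SE 0.09, adjusted p = 0.186). Without E3KO replicate 1 the calls were 1 higher (*Zfp36*) and 1 lower (*Klf6*), and without E3KO replicate 3 there were 0, with 9 genes called by limma in the whole table. *Zfp36* was called with each of the other 8 libraries left out. With the 9 libraries left out in turn, the *Cyr61* call was lost in 7 cases, the *Ctgf* call in 6 and the *Klf6* call in 4, and that of *Cyr61* was also lost with log2(FPKM + 0.1), without the filter and on rescaling (adjusted p up to 0.0625).

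Of 24 genes known as AP-1 targets, 20 were tested, 4 were higher in E3KO and 0 were lower by limma, beside 1.3% and 2.88% of all genes, with a median of 0.11. By unadjusted p 8 were higher and 1 was lower, where 6.65% and 16.6% of all genes were. *Icam1*, the leukocyte adhesion molecule, was 5.02 to 10.4 FPKM in the controls and 28.1, 18.8 and 21.9 FPKM in E3KO (1.37, SE 0.20, limma adjusted p = 0.0155). *Ccl2*, the monocyte chemokine, was 144 to 287 FPKM and 537, 482 and 514 FPKM (1.27, SE 0.23, adjusted p = 0.0244).

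*Edn1*, which encodes the vasoconstrictor endothelin-1, was 72.6 to 119 FPKM in the controls and 186, 141 and 164 FPKM in E3KO (0.87, SE 0.18, limma adjusted p = 0.0373). *Hmox1*, heme oxygenase 1, was 209 to 343 FPKM and 394, 501 and 553 FPKM (0.82, SE 0.19, adjusted p = 0.0492). For all 4 genes every E3KO library lay above every control library, as for 4.92% of all genes tested. Beside these genes the leukocyte markers summed to 83.9 to 294 FPKM in the controls and 232 to 364 FPKM in E3KO, with overlap, and their part in these results was not tested. *Plau*, which encodes urokinase and was the most abundant target, was 919 to 1032 FPKM and 839, 1078 and 1000 FPKM (−0.04, SE 0.11, adjusted p = 0.825). Without E3KO replicate 1 only *Icam1* and *Hmox1* were called, and the median of the list was 0.33. Without E3KO replicate 3 or EfCtrl replicate 3 there were 0 calls by limma, and *Edn1* was called only without ECtrl replicate 2 among the 9 libraries left out in turn. The *Ccl2* call was lost without EfCtrl replicate 1 or 3 and without each E3KO library (limma adjusted p up to 0.0945). It was also lost without the filter on low values (adjusted p = 0.0505). The *Hmox1* call was lost with 7 of the 9 left out in turn (adjusted p up to 0.146), and kept only without ECtrl replicate 3 or E3KO replicate 1. It was also lost with a pseudocount of 0.1 (adjusted p = 0.0621) or 0.5 (adjusted p = 0.0549) and without the filter on low values (adjusted p = 0.0825).

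**Figure D5:**
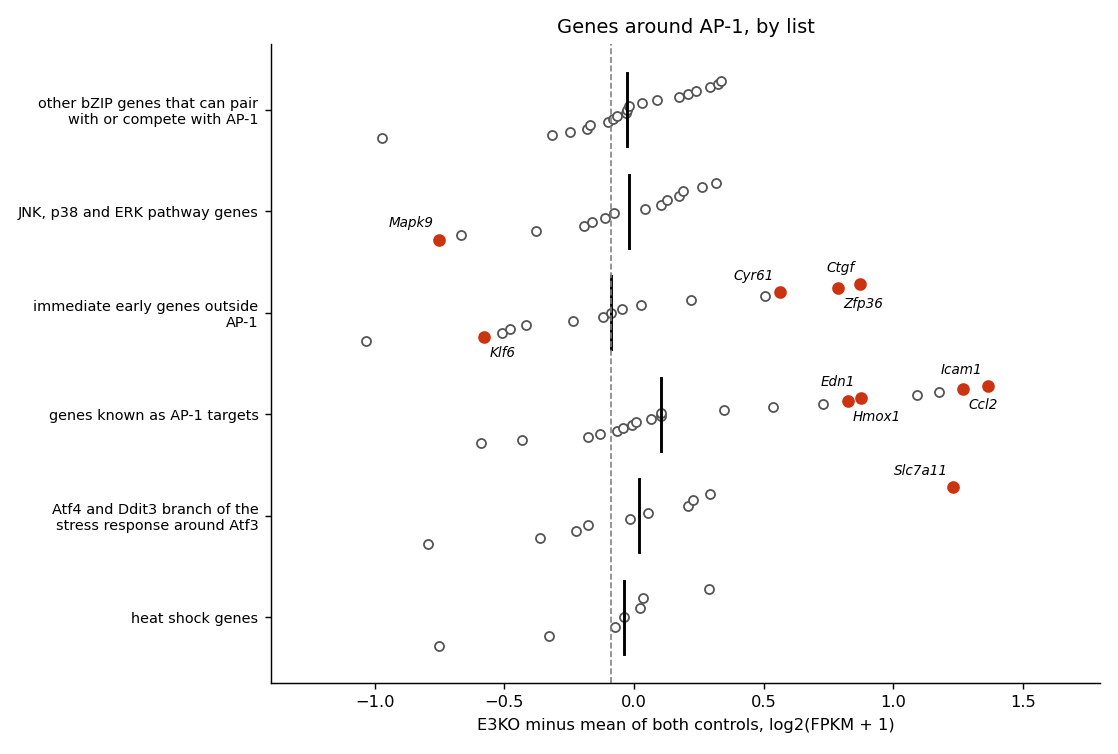
Difference in log2(FPKM + 1) between E3KO and the mean of both controls for the tested genes of 6 lists around AP-1, 1 point per gene, filled and named where called (limma adjusted p under 0.05), with a bar at the median of each list and a dashed line at the median of all genes tested. The AP-1 target list has 4 called genes, all higher, and no list has more than 1 called gene that is lower.

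The consensus AP-1 site was looked for in the promoters of the targets. Of the 24 genes 16 had a RefSeq entry, and 7 of these held TGAGTCA or TGACTCA within 250 bases of the start, compared with 4.46% of all promoters. They were listed as AP-1 targets, so such sites do not come as a separate observation. The 3 of the 7 that were tested are shown, with the site in capitals.

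Mmp13 promoter, chr9:7272264-7272513, plus strand: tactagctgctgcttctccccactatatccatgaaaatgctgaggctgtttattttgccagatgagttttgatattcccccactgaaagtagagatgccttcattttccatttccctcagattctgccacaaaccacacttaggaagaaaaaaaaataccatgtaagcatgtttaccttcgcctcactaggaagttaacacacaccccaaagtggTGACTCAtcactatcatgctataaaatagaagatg
Plaur promoter, chr7:24462233-24462482, plus strand: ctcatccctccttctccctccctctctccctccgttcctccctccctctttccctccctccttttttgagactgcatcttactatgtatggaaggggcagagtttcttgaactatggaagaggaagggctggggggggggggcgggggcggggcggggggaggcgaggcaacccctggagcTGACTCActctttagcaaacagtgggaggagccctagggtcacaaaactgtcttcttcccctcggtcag
Mt2 promoter, chr8:94172368-94172617, plus strand: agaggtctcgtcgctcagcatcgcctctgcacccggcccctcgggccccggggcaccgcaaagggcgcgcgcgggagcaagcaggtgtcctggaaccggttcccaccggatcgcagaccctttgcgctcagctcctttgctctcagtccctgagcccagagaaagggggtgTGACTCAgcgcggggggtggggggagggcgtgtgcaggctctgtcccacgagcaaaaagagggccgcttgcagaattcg

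None of the 3 was called. *Mmp13*, a collagenase, differed by 0.35 (SE 0.44, limma adjusted p = 0.651), *Plaur*, the urokinase receptor, by −0.59 (SE 0.19, adjusted p = 0.125) and *Mt2*, a metallothionein, by 0.53 (SE 0.17, adjusted p = 0.117). Of the 4 called targets, *Icam1* and *Edn1* had an entry, and their 250 bases held none of the motifs searched.

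The genes of the Atf4 and Ddit3 branch of the stress response, in which *Atf3* is a known target, were all tested. Of the 10, *Slc7a11*, the cystine transporter, was the 1 called, as higher, beside 1.3% of all genes, at 0.765 to 2.27 FPKM in the controls and 3.59, 4.69 and 6.34 FPKM in E3KO (1.23, SE 0.21, limma adjusted p = 0.0229). It was also called without E3KO replicate 1, but not without replicate 2 or replicate 3 or without EfCtrl replicate 1 or 3. The median of the list was 0.02, and by unadjusted p 2 were higher and 1 was lower, beside 6.65% and 16.6% of all genes. The lower one was *Trib3*, a pseudokinase gene induced by Atf4 and named here after its values were seen. It was 27.6 to 43.5 FPKM in controls and 12.2, 25.6 and 24.2 FPKM in E3KO (−0.80, SE 0.24, adjusted p = 0.105). Each E3KO library lay below every control, as for 11.3% of all genes tested. *Asns*, asparagine synthetase and likewise named afterwards, differed by −0.36 (SE 0.18, adjusted p = 0.258), and its groups overlapped. *Hspa5*, the endoplasmic reticulum chaperone, was 246 to 301 FPKM and 298 to 314 FPKM (0.23, SE 0.09), and *Atf4* itself was 72.8 to 86.3 FPKM and 80.5 to 108 FPKM (0.21, SE 0.12). Of 8 heat shock genes 7 were tested, 0 were called by limma, beside 4.18% of all genes, and 1 was lower by unadjusted p, beside 16.6%. *Hsph1* was 211 to 225 FPKM and 204 to 228 FPKM (−0.04, SE 0.08), and *Hspa8* was 114 to 178 FPKM and 163 to 179 FPKM (0.29, SE 0.15).

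Among the leukocyte, smooth muscle and epithelial markers 0 genes were called by limma in either direction at the adjusted threshold. Of the 8 leukocyte markers tested all 8 differences were above 0, and by unadjusted p 5 were higher and 0 were lower, beside 6.65% and 16.6% of all genes. *Itgam* (0.75, SE 0.19, adjusted p = 0.0715) and *Fcer1g* (0.85, SE 0.25, adjusted p = 0.0996) had every E3KO library above every control library, as did 4.92% of all genes tested. By unadjusted p 1 of 2 smooth muscle markers was lower and 0 of 2 epithelial markers passed. The leukocyte list summed to 83.9 to 294 FPKM in the controls and to 232, 333 and 364 FPKM in E3KO, with *Lyz2* the most abundant (0.98, SE 0.41, limma adjusted p = 0.205). The smooth muscle list summed to 8.42 to 56.2 FPKM and to 7.93, 12.5 and 13.7 FPKM, with *Acta2* the most abundant. The epithelial list summed to 2.88 to 6.14 FPKM in the controls and to 51.4, 3.19 and 4.57 FPKM in E3KO, and 46.2 FPKM in replicate 1 was *Scgb1a1*, the club cell secretoglobin.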

How the data were processed

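The authors aligned paired-end reads to mm10 with TopHat2 and estimated transcript levels with Cufflinks (the submitters' processing notes give version 1.0.3). The deposited tables hold an FPKM for each library, which were used, and an FPKM for each group as the authors' value. For the AP-1 genes this group value was 1.12 to 1.22 times the mean of the 3 libraries in E3KO. In the control groups it was 1.01 to 1.12 times that mean. By the authors' group values *Atf2* was 29.3 FPKM in E3KO, 28.0 FPKM in ECtrl and 28.2 FPKM in EfCtrl. In the same order *Jun* was 9.73, 14.1 and 13.6 FPKM, and *Jund* was 10.7, 16.1 and 16.3 FPKM. Both were still lower in E3KO, but by less than in the means of the libraries. *Fosl2* was 53.9, 46.4 and 44.4 FPKM, so it was higher by more. The deposited tables also hold Cuffdiff fold changes, p-values and q-values, which were not used. FPKM has been normalised to length and library by the authors.

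Groups and replicate numbers came from the sample labels. Of 37104 loci, 33353 with a symbol naming 1 locus were kept. Values were fitted as log2(FPKM + 1) with limma 3.58.1 (R 4.3.3) over all 9 libraries and 3 groups, for 11306 genes with a mean of at least 1 FPKM, with Benjamini-Hochberg adjustment, and the fit was tested on simulated data. For one gene at a time, log2(FPKM + 0.1) of E3KO was set against all 6 controls in an exact permutation test (two-sided). For 3 against 3 libraries the smallest exact permutation p is 0.1, so that test is not given. Low values gave a rough relative depth of 1 to 1.68 between libraries, but fragment numbers are unknown. Promoters came from RefSeq (GRCm38.p6) and gene models from GENCODE M21 (the same build).

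The genes and lists were chosen with earlier results of these data known. The genes named were all AP-1 genes, the JNK genes, the called genes (at most 6) and the 2 most abundant of each list, the main markers, and the 3 genes most like each AP-1 gene with a mean of at least 5 FPKM. Some genes that this rule names are not reported here. The target genes with an AP-1 site were named after their values were seen. Alternatives were other pseudocounts (0.1 and 0.5), filters, scalings, variance models, a replicate block and each library left out. P-values measure the spread between isolations.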

Additional observations from a re-analysis of the deposited data

How the results depend on the processing

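Of 497 alternative values for the 28 differences of single AP-1 genes under 18 settings, 474 kept their direction and their side of the threshold. Only 1 of the 28, *Jun* against the mean of both controls, was called in the results above. The others had no call to lose, so this count says little about calls. The *Jun* call was kept in 7 of 8 settings with every library and in 1 of 9 with a library left out. The *Jun* difference of E3KO stayed below 0 against ECtrl, EfCtrl and their mean in each alternative. Over the settings that kept every library its adjusted p was 0.0276 to 0.0869 against the mean, 0.0573 to 0.205 against ECtrl and 0.0761 to 0.189 against EfCtrl. Same-numbered libraries of different groups had correlations of −0.0404 to 0.126 of their deviations from the group means, and differently numbered ones −0.214 to 0.0769. The highest were between the controls, at 0.126 for replicate 1 and 0.120 for replicate 2. These values do not settle whether replicate numbers pair the libraries. With a replicate block the count of AP-1 genes called against the mean of both controls was 0 (*Jun* adjusted p = 0.0869), and the whole table had 1 call against ECtrl, 1 against EfCtrl and 181 against their mean. The block left 0 genes of the kinase pathways, 1 immediate early and 2 target genes called.

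Against ECtrl the table had 95 calls without the filter on low values and 0 by limma on these 2 groups alone. Against EfCtrl it had 44 with log2(FPKM + 0.1), 17 without the filter and 28 on these 2 groups alone, a fit not run for the mean of both controls. Without the filter, centred on the library median, or rescaled to equal sums below 1000 FPKM, 0 genes of the kinase pathways were called, and without the filter 1 target gene was. Centring turned *Plau* to 0.041 and *Hsph1* to 0.0467, and rescaling turned *Hsph1* to 0.0024. The cause was not tested.

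With 1 library left out at a time, the AP-1 genes called against the mean of both controls numbered 0 to 1. The table had 0 to 185 calls against ECtrl, 1 to 192 against EfCtrl, 9 (without E3KO replicate 3) to 386 against their mean, and 0 to 4 between the controls. Calls numbered 0 to 1 for kinase pathways, 0 to 4 for immediate early genes, 0 to 4 for targets and 0 to 1 for the Atf4 and Ddit3 branch. The AP-1 genes with an exact permutation p under 0.05 were 2 (*Jun* and *Jund*) with all libraries and 1 to 3 with 1 left out. *Jun* was among them each time, *Jund* was not in 6 of 9, and the 3 without E3KO replicate 1 were *Jun*, *Fos* and *Fosl2*, the last 2 as higher. Differences that changed sign were *Fosl2* against ECtrl (−0.018 to 0.25), *Atf2* against ECtrl (−0.21 to 0.063), EfCtrl (−0.23 to 0.041) and their mean (−0.22 to 0.052), and *Maff* against the mean (−0.040 to 0.11). Between the controls these were *Jun* (−0.14 to 0.030), *Jund* (−0.13 to 0.19), *Fosl1* (−0.17 to 0.41) and *Atf2* (−0.043 to 0.060). Outside AP-1 they were *Mapk3* (−0.015 to 0.24) and *Plau* (−0.12 to 0.058). In log2(FPKM + 0.1), which covers genes below the minimum for the fit, *Junb* (−0.47 to 0.20) and *Fos* (−0.66 to 0.96) changed sign as well.

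Without counts, the precision of low genes such as *Fosb* and *Fos* cannot be given.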
